A study of Mus musculus with 278 samples.

Results

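Keratin expression was followed for 10 genes, Krt5, Krt6a, Krt14, Krt15 and Krt17 as keratins of the basal lineage and Krt7, Krt8, Krt18, Krt19 and Krt23 as keratins of the luminal lineage, out of 25139 named genes with counts. The genes were chosen by name, and all 10 were found in the files of single cells from the mammary gland of FVB/NJ mice. Adult cells had been sorted by lineage before capture, giving 112 basal and 43 luminal cells, whereas the 123 cells from mid-pregnancy were total epithelium with no lineage sort. All cells were captured on the Fluidigm C1, a microfluidic device with 1 cell per capture site, and each cell is 1 library of amplified cDNA counted in read pairs, called reads here. No animal is named in the labels, and the study pooled several mice for each sort, so that each group is 1 sample of many cells. Stage, sort and animals cannot be told apart, and no test between groups was possible.

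Keratins are the intermediate filament proteins of epithelia, and a filament is built from heterodimers of a type I with a type II keratin. Krt5, Krt6a, Krt7 and Krt8 are type II, and Krt14, Krt15, Krt17, Krt18, Krt19 and Krt23 are type I. In the mammary gland the contractile basal cells are known for the Krt5 and Krt14 pair, and the ductal and milk-producing luminal cells for the Krt8 and Krt18 pair.

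With a minimum of 50000 reads, 85 adult basal, 41 adult luminal and 96 pregnancy cells were kept. Adult basal cells had 67299 to 1292391 reads each (median 379076), the adult luminal sort 173492 to 1007377 (median 638595) and pregnancy 54010 to 790575 (median 215398). Shares of cells are therefore given after thinning each cell to 50000 reads, with exact binomial intervals, and levels as CPM, the counts scaled to a fixed total, of the reads summed over a group. The intervals (95%) cover counting error only. The sort labels were checked with markers other than keratins: all 85 adult basal cells had a read of 3 or more of 8 basal markers, and 40 of 41 adult luminal cells of 3 or more of 8 luminal markers. A few cells went against their sort. Adult luminal cells 35 and 43 had 7 and 3 basal markers, and adult basal cell 19 had all 5 immune markers examined. Of the adult basal cells, 8 had a read of 3 or more of the luminal markers, with at most 4. Of these 8 cells, 6 also had reads of both keratin pairs. Where 1 cell held much of the reads behind a ratio of a keratin, the ratio is also given without it.

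The genes lie in the keratin clusters of chromosomes 11 (type I) and 15 (type II), except for the type I gene Krt18, which lies on chromosome 15 at 102028216 to 102032026 (mm10), next to Krt8 at 101996711 to 102004342. The 250 bases before the start of Krt5, Krt8 and Krt18, taken from RefSeq (GRCm38.p6), are shown because these partners split between the lineages. The listed start of Krt14 lies inside its annotated gene, and its window was not used. Capitals mark matches to CANNTG, the E-box, in which a match on one strand is a match on the other.
Krt5 (chr15:101712906-101713155, minus strand): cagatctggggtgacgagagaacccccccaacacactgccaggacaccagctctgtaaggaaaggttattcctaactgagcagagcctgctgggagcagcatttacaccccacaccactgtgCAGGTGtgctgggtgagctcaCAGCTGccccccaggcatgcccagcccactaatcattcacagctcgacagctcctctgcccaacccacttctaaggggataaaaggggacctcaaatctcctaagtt
Krt8 (chr15:102004343-102004592, minus strand): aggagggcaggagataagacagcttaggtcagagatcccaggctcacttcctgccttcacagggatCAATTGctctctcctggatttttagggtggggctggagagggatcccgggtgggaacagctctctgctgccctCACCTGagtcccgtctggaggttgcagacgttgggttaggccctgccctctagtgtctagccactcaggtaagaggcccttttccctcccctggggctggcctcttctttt
Krt18 (chr15:102027966-102028215, plus strand): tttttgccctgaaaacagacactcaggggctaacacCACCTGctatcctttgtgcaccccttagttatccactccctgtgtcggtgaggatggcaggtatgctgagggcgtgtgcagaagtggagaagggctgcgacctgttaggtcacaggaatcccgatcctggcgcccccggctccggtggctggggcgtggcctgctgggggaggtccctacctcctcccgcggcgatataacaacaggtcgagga
Each window held an E-box, as did 66.2% of 32851 promoter windows of this length. On neither strand did they hold the TATA box letters TATAAA (present in 12.4% of all windows), the AP-1 motif TGANTCA (6.75%), the GC box GGGCGG (32.7%) or the CCAAT box (33.8%). Their GC content was 56%, 58% and 60.4% for Krt5, Krt8 and Krt18.

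Adult basal cells were dominated by type I keratins of the basal set. Krt14 was at 3149 CPM over the group, with 0 CPM in the lowest cell, a median of 3106 and 17861 in the highest, and Krt17 at 2997 CPM, with a median of 2625 and a highest cell of 10151. Both were read in nearly every cell, Krt14 in 83 of 85 and Krt17 in 82 of 85. Krt5, the type II partner of Krt14, was lower at 495 CPM (median of cells 335, highest 3386) and was read in 76 of 85 cells (89.4%, interval 80.8 to 95.0%). Krt15, which marks a part of basal cells in several epithelia, was patchy: 23 of 85 cells had a read (27.1%), the median was 0 and the highest cell was at 4830 CPM, for 145 CPM over the group. Krt6a, a keratin best known from hair follicles and wounded skin, had 184 reads in 2 cells, 83.7% of them in cell 69.

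The luminal keratins were low but not absent in adult basal cells. Krt8 was at 232 CPM with reads in 56 of 85 cells (65.9%), and Krt18 at 182 CPM in 41 cells (48.2%). In the 77 adult basal cells with fewer than 3 luminal markers, Krt8 was at 231 CPM and Krt18 at 166. The median adult basal cell had 71.3 CPM of Krt8 and 5.02 CPM of Krt18, and the highest had 2323 and 2692. Krt19, the small keratin without a tail domain, was read in 19 cells (57.0 CPM) and Krt7, a simple-epithelium keratin, in 10 cells (22.4 CPM, 52.8% of it in cell 77).

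Adult luminal cells showed the reverse order. Krt18 was read in all 41 cells at 2861 CPM, from 179 in the lowest cell through a median of 2998 to 9120 in the highest. Krt19 followed at 1559 CPM (median 1375, 40 of 41 cells), and Krt8, the type II partner of Krt18, at 1109 CPM (median 1044, 40 of 41 cells). Krt7 was read in 35 of 41 cells (85.4%) at 237 CPM, with a median of 106. Of the basal keratins, Krt14 was the most widespread, in 8 of 41 cells at 58.7 CPM. Krt5 and Krt17 reads came almost wholly from cell 35, which held 95.5% of the 44 Krt5 reads and 99.1% of the 1376 Krt17 reads. Without cells 35 and 43, no thinned luminal cell had a read of either gene.

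**Figure D1:**
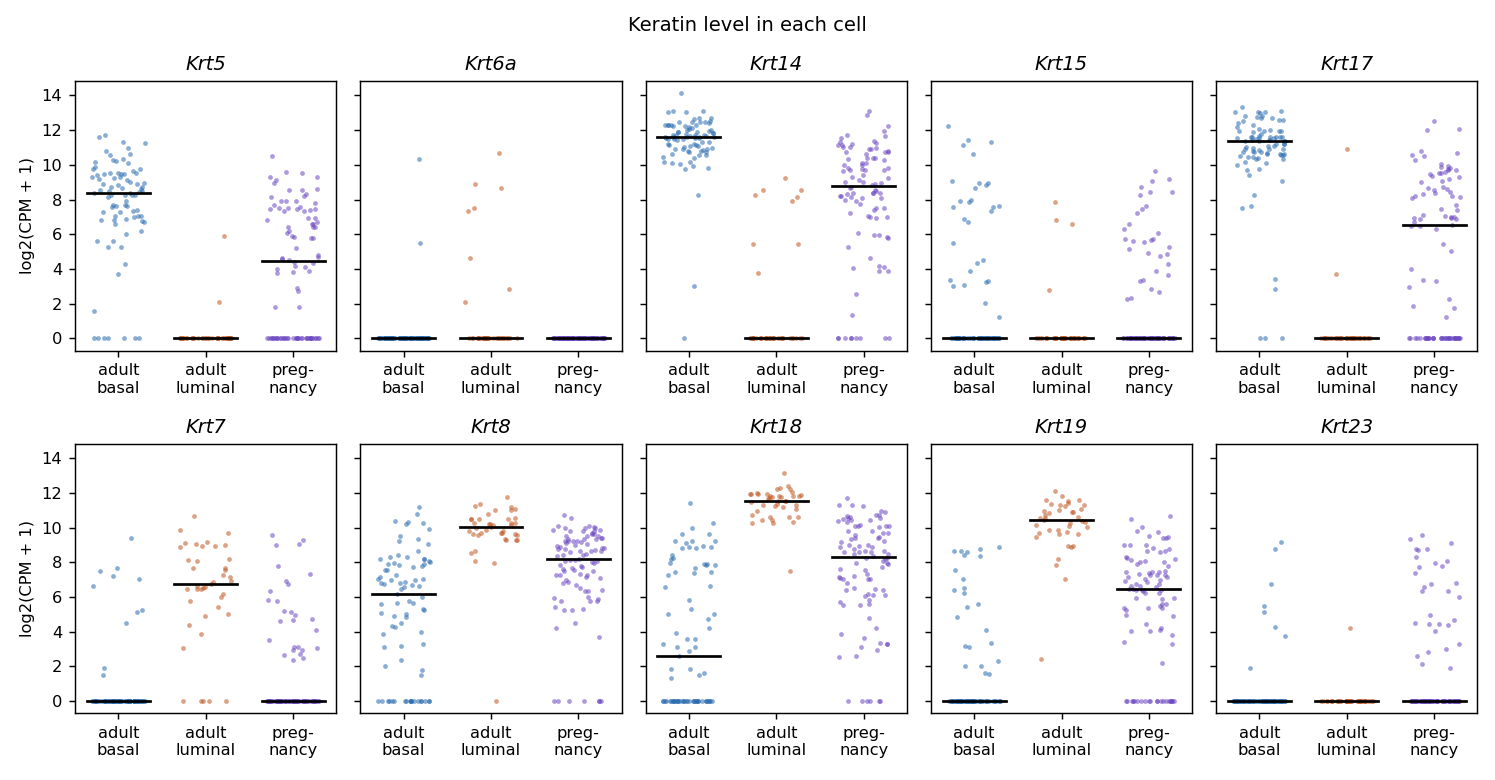
Level of each keratin in each cell as log2(CPM + 1), with 85 adult basal, 41 adult luminal and 96 pregnancy cells; each point is a cell and the bar is the median. Krt14 and Krt17 sit high in nearly all adult basal cells, Krt18 in all adult luminal cells, and pregnancy cells spread over both ranges.

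Summed over cells, 4 of the 5 basal keratins were 2-fold or more higher in adult basal than in adult luminal cells, beside 23.8% of 14562 genes, and the median log2 ratio of the set was 5.75 against -0.34 over all genes. Krt5 had the largest ratio of the set (log2 8.13, interval 7.70 to 8.59), and it was 12.55 without cell 35. Krt17 (5.76) and Krt14 (5.75) had nearly equal ratios, but without its top luminal cell Krt17 moved to 12.56 and Krt14 only to 6.00. Krt15 was at 3.69, and at 4.97 without luminal cell 7. The exception was Krt6a, which was 12.6-fold lower in basal cells (log2 -3.66, interval -3.88 to -3.43), with its 1611 luminal reads in 8 of 41 unthinned cells and 49.5% of them in cell 16. Its ratio was -6.27 without basal cell 69 and -2.70 without luminal cell 16.

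Of the 5 luminal keratins, 4 were 2-fold or more lower in adult basal than in adult luminal cells, beside 35.9% of all genes, with a median log2 ratio of -3.40. The ratio was largest for Krt19 (-4.77) and smallest for Krt8 (-2.26, interval -2.29 to -2.22), with or without the top basal cell of each. Krt18 (-3.98) and Krt7 (-3.40) lay between, and without their top basal cells they were at -4.17 and -4.46, so that their order turned. Krt23 went against its set. It was at 17.7 CPM in adult basal and 0.282 CPM in adult luminal cells (log2 5.98, interval 4.92 to 7.30), although only 4 of 85 thinned basal cells had a read and cell 34 held 69.4% of its basal reads. Without cell 34 it was 19.7-fold higher in adult basal cells, and without luminal cell 28, which held its luminal reads, at least 144-fold. Krt6a and Krt23 were thus on the other side from the lineage under which they are listed here.

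**Figure D2:**
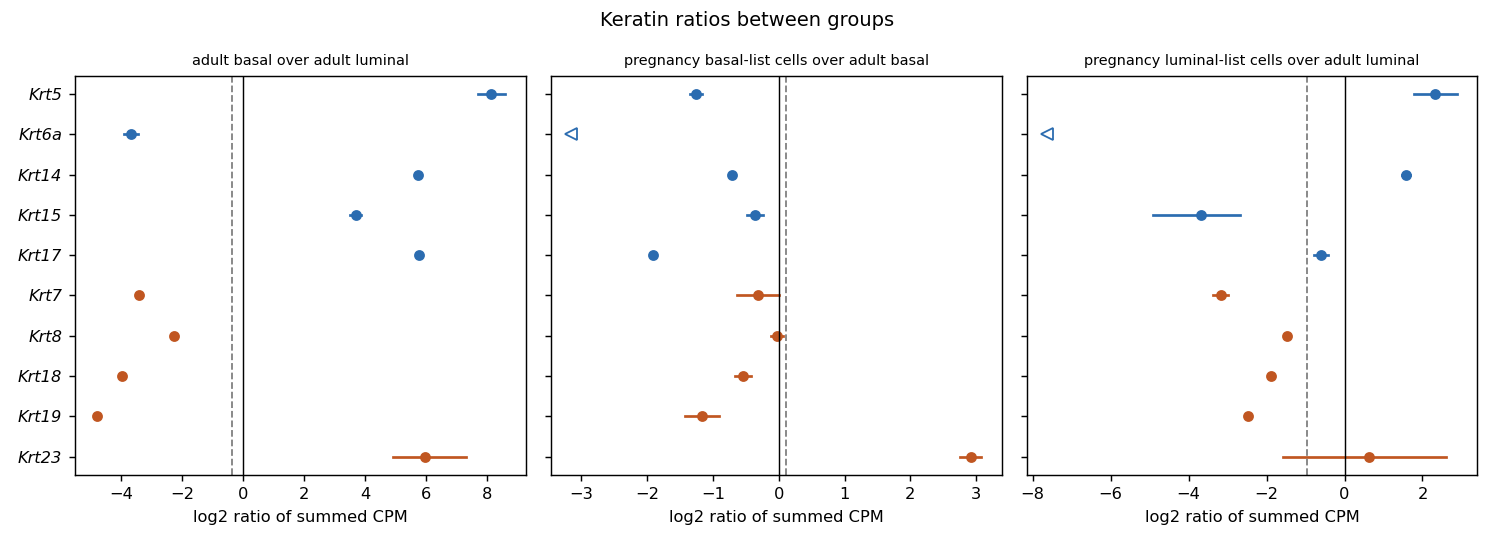
Log2 ratio of summed CPM for each keratin in the 3 comparisons, blue for keratins of the basal set and orange for the luminal set; lines are counting intervals, open triangles are bounds where no read was seen, and the dashed line is the median of all genes. Krt6a and Krt23 lie apart from their sets in adult basal over adult luminal cells, at -3.66 and 5.98.

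Per kilobase (kb) of gene length, which allows keratins to be set against each other, Krt17 (1984 CPM per kb) and Krt14 (1897) stood at the top in adult basal cells. They did not differ beyond the spread of cells, with quartiles at 993 and 2595 for Krt17 and at 1175 and 2759 for Krt14, and Krt14 was the leading keratin in 48 cells and Krt17 in 36. Krt5 (226) was far below them, followed by Krt18 (130) and Krt8 (128), whose middle ranges across cells overlapped, and then Krt15, Krt19, Krt7, Krt23 and Krt6a from 84.3 down to 2.28. In adult luminal cells the order was Krt18 (2043), Krt19 (1134), Krt8 (614) and Krt7 (149), with all others at 36.6 or less. The middle ranges of Krt18 (1400 to 2777) and Krt19 (590 to 1562) overlapped, as did those of Krt19 and Krt8 (425 to 799). In pregnancy cells Krt14 (444), Krt18 (384), Krt8 (212), Krt17 (203) and Krt19 (147) formed a continuous order with overlapping ranges.

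Type II keratins were the minor partner in every group. Their share of the summed level of the 10 genes per kb was 7.54% in the median adult basal cell (83 cells, 0 to 33.8%), 19.7% in the median adult luminal cell (41, 0 to 37.7%) and 17.9% in the median pregnancy cell (93, 0 to 65.4%). Cells with fewer than 20 keratin reads were left out. Type II reached 50% or more in 2 pregnancy cells and in no adult cell. Krt5 made up a median of 8.30% of the Krt5 and Krt14 level in adult basal cells, and Krt5 exceeded Krt14 in 2 of 83 cells. How evenly the cDNA of each gene was covered was not tested.

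The Krt8 and Krt18 pair differed in balance between lineages. Krt8 made up a median of 66.5% of the pair in the 58 adult basal cells with 20 or more reads of it, and exceeded Krt18 in 33. These cells spread from 0 to 100% with quartiles at 17.9% and 99.8%, many having reads of only 1 partner or nearly so. In adult luminal cells the median was 21.1% and the highest of 41 cells was 42.3%, so that Krt18 was the larger in every one. The basal value depended on the minimum of reads of the pair, at 50.4% in the 33 cells with 100 or more. In pregnancy cells the median was 39.6%, with 69.8% in cells of basal profile, 40.1% in cells of both profiles and 30.4% in cells of luminal profile, as these profiles are defined below.

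**Figure D3:**
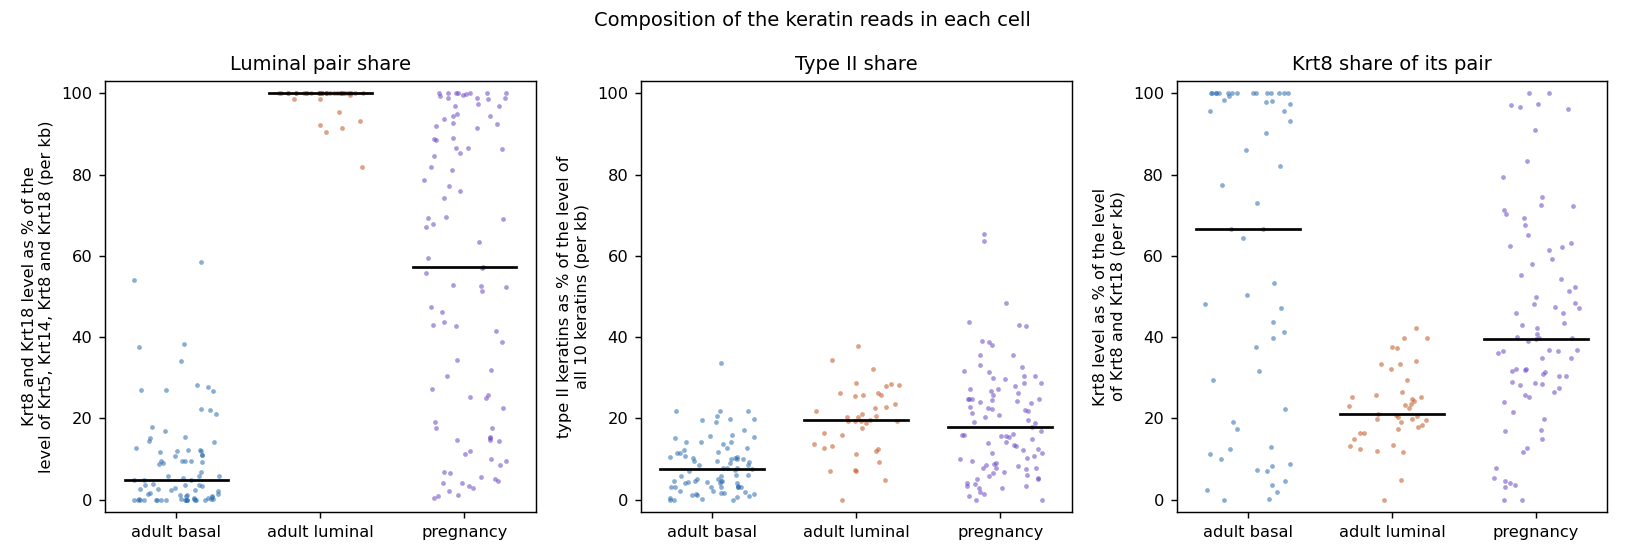
Share of the luminal pair in the level of the 4 pair keratins, share of type II keratins in the level of all 10, and share of Krt8 in the level of Krt8 and Krt18, all per kb and in percent, for each cell with 20 or more reads of the genes concerned; bars are medians. The luminal pair share has medians of 4.92%, 100% and 57.1% in adult basal, adult luminal and pregnancy cells.

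Partners of a pair were mostly read together in the lineage where the pair was high, but there each was also read in most cells. Krt5 and Krt14 were read in 76 and 83 of 85 adult basal cells, and Krt8 and Krt18 in 40 and 41 of 41 luminal cells. The counts of cells with both follow in part from this and do not by themselves measure pairing. Of the 83 adult basal cells with a read of Krt5 or Krt14, 76 had both (91.6%, interval 83.4 to 96.5%), 7 had Krt14 alone and none had Krt5 alone. Of the 41 adult luminal cells with Krt8 or Krt18, 40 had both (97.6%). In the other lineage, where each partner was read in a smaller share of cells, pairs were incomplete. Among 66 adult basal cells with Krt8 or Krt18, 31 had both (47.0%, interval 34.6 to 59.7%), 25 had Krt8 alone and 10 had Krt18 alone. Among 8 adult luminal cells with Krt5 or Krt14, 7 had Krt14 alone and only cell 35 had both. In pregnancy, Krt5 was again never read without Krt14: 53 of 83 cells had both (63.9%) and 30 had Krt14 alone. Krt8 and Krt18 were together in 78 of 94 pregnancy cells (83.0%).

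The levels of partners were related to different degrees, given as Spearman correlations over thinned cells and as descriptions only. Cells share the sort, and in sparse counts a weak correlation is no finding. In the adult basal sort Krt5 and Krt14 had a correlation of 0.04 over 85 cells, and Krt8 with Krt18 had 0.26. In adult luminal cells Krt8 with Krt18 had 0.52 over 41 cells. In the unsorted pregnancy cells the values were 0.63 for Krt5 and Krt14 and 0.53 for Krt8 and Krt18 over 96 cells. The highest there was between a pair of type I genes, Krt18 and Krt19 (0.73), and the lowest between Krt5 and Krt18 (-0.42). Within the 36 pregnancy cells of basal profile, Krt5 and Krt14 had 0.10.

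Reads of all 4 pair keratins in the same cell were common outside the luminal sort. Such cells were 31 of 85 in the adult basal sort (36.5%, interval 26.3 to 47.6%), 42 of 96 in pregnancy (43.8%, interval 33.6 to 54.3%) and 1 of 41 in the adult luminal sort (2.44%, interval 0.0617 to 12.9%). The single luminal cell was cell 35. The intervals of the basal and pregnancy shares overlapped, but the pregnancy cells were not sorted by lineage. Their share was 55.6% (interval 38.1 to 72.1%) in cells of basal profile and 6.45% in cells of luminal profile, as defined below. With 5 or more reads required of each gene the shares were 14.1% and 17.7%, and without thinning they were 51.8% in adult basal, 56.3% in pregnancy and 4.88% in adult luminal cells. Without the 8 adult basal cells with 3 or more luminal markers, 25 of 77 had both pairs (32.5%).

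The amount of the second pair is given as its share of the level. Krt8 and Krt18 made up a median of 4.92% of the level of the 4 keratins per kb in adult basal cells, with the highest cell at 58.5%, and a median of 100% in adult luminal cells, with the lowest at 81.8%. The 2 adult sorts did not overlap. Pregnancy cells covered the range from 0.393% to 100%, with a median of 57.1% and quartiles at 17.6% and 91.5%. Between 10% and 90% lay 54 of 93 pregnancy cells (58.1%, interval 47.4 to 68.2%), 28 of 83 adult basal cells (33.7%, interval 23.7 to 44.9%) and 1 of 41 adult luminal cells. This share, and the Krt8 share of its pair, were computed after the counts above were seen. Pregnancy cells with title numbers up to 55 and above gave 60.5% and 56%.

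**Figure D4:**
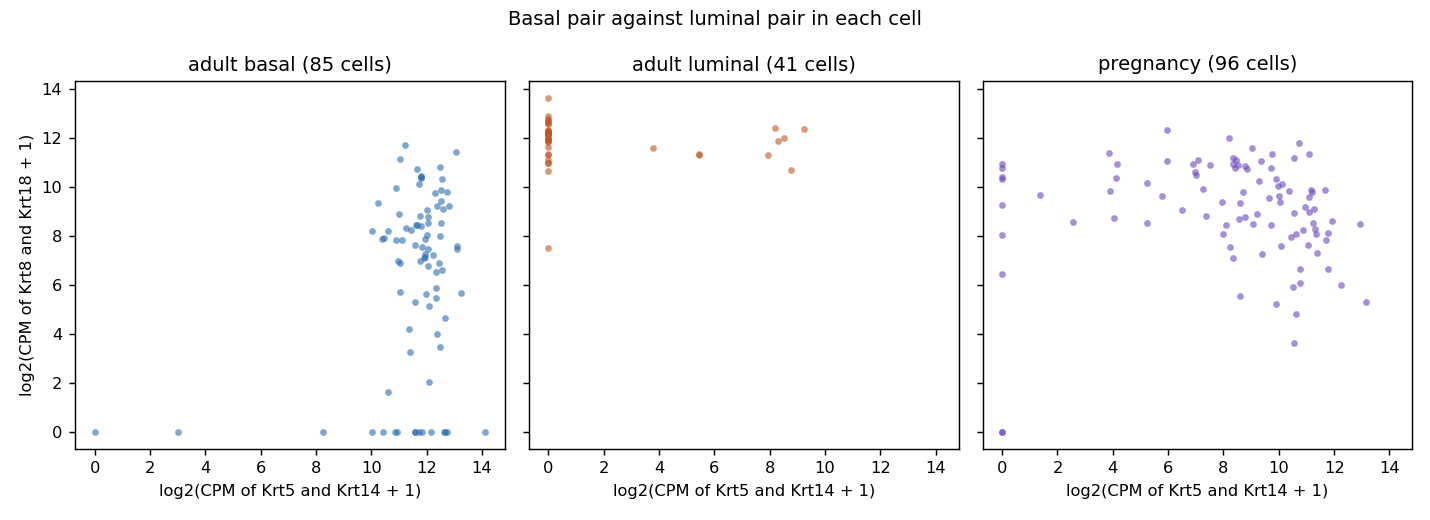
Summed CPM of Krt8 and Krt18 against that of Krt5 and Krt14 in each cell, both as log2(CPM + 1), for 85 adult basal, 41 adult luminal and 96 pregnancy cells. Adult basal cells form a column at high Krt5 and Krt14 with Krt8 and Krt18 from 0 upwards, most adult luminal cells lie at 0 on the horizontal axis, and pregnancy cells fill the area between.

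Other measures of the cells with both pairs were set beside these counts. In adult basal cells, those with both pairs had a median of 1.60% of the luminal list genes (187 genes, without keratins and milk genes) with a read, the same as the 1.60% of the 54 other cells. They had more genes read at 50000 reads (median 2571 against 2000) and more of the basal list (33.5% against 27.6%), and their unthinned depth was 397642 against 336628 reads. In pregnancy, cells with both pairs had a median of 35.6% of the basal list and 17.6% of the luminal list, against 14.7% and 24.6% in the rest. Reads of 3 or more markers of an immune, endothelial, fibroblast or pericyte list were present in 7 of 42 pregnancy cells with both pairs and 15 of 54 without. Cycling cells were 11 of 42 and 15 of 54. Cycling cells and cells with non-epithelial markers lay mostly in title numbers up to 55. There, cycling cells were 10 of 19 with both pairs and 14 of 26 without, against 1 of 23 and 1 of 28 above. Cells with such non-epithelial markers were 6 of 19 and 11 of 26, against 1 of 23 and 4 of 28 above. No doublet caller was run on these captures, which the study inspected by eye, and the part of doublets in the counts was not tested.

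Pregnancy cells were then placed by the basal and luminal gene lists without any keratin. A cell counted as of a profile when the share of list genes read reached the 10th percentile of the adult sort, 18.1% for the basal and 16.0% for the luminal list. This gave 36 cells of basal profile, 31 of luminal profile, 27 of both and 2 of neither. The split depended on the luminal limit: with the study's own minimums of reads and genes, which leave out 2 adult luminal cells, the limit was 25.2% and the numbers were 52, 23, 11 and 10. Both keratin pairs were read in 20 of the 36 cells of basal profile (55.6%), 2 of the 31 of luminal profile (6.45%) and 20 of the 27 of both (74.1%). With the study's minimums these were 33 of 52 (63.5%), 1 of 23 (4.35%) and 7 of 11 (63.6%). All 27 cells of both profiles had Krt8 and Krt18. Their luminal pair share had a median of 63.4%, between 14.3% in cells of basal and 93.8% in cells of luminal profile.

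In CPM, the lists separated the keratins in pregnancy as the sort had in the adult, although less widely for some. Milk genes took 1.60% of reads in cells of basal and 36.6% in cells of luminal profile. In the adult basal and luminal sorts they took 0.000679% and 1.25%. They were kept in the totals, which shifts each basal over luminal ratio upwards by construction. Krt5 was at 207 CPM in cells of basal and 8.84 in cells of luminal profile (log2 4.55), Krt14 at 1915 and 176 (3.45), Krt17 at 795 and 36.4 (4.45) and Krt15 at 113 and 0.873 (7.02). Without the luminal-profile cell with most reads, which was cell 122 for Krt5 and cell 101 for Krt17, these ratios were 5.68 and 7.49. Krt18 was at 125 and 770 (log2 -2.63) and Krt19 at 25.4 and 282 (-3.47). Krt8 was at 227 and 402 CPM (-0.82), with 188 and 956 in title numbers up to 55 and 283 and 258 above. Milk genes took 1.10% and 17.4% of reads in these cells up to 55, and 2.33% and 41.7% above. Above 55, leaving milk genes out of the total raises Krt8 more in cells of luminal than of basal profile. The Krt8 ratio above 55 without them was not computed. Krt7 was at 18.1 and 26.2 CPM (-0.53), or -3.35 without cell 52. Krt23 was again with the basal keratins, at 134 CPM against 0.436 (log2 8.26, interval 6.90 to 10.14), with reads in 15 of 36 cells of basal and 0 of 31 of luminal profile. Krt14 was widespread even in cells of luminal profile, with a read in 23 of 31 (74.2%), against 8 of 41 (19.5%) in the adult luminal sort. By title number it was read in 9 of 9 of these pregnancy cells up to 55 (330 CPM) and 14 of 22 above (135 CPM).

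Most basal keratins were lower in pregnancy cells of basal profile than in adult basal cells. Of the 5, 3 were 2-fold or more lower, beside 22.2% of 14116 genes, and none was 2-fold higher, beside 30.9%, with a median log2 ratio of -1.26 against 0.11 over all genes. Among those with reads, Krt17 had the largest ratio, with 2997 CPM in the adult and 795 in pregnancy (log2 -1.92, interval -1.96 to -1.87), then Krt5 with 495 and 207 (-1.26). Krt14 was within 2-fold (-0.72). Krt15 was at -0.36, but at -0.97 without pregnancy cell 6 and at -1.26 as a mean over cells. Krt6a had no read in any of 96 pregnancy cells, which allows a share of up to 3.13% of cells, and in cells of basal profile it was at least 8.91-fold lower, counting 3 reads over the group in place of 0. This rested on adult basal cell 69, without which the bound was 1.46-fold and 2 of the 5 keratins were 2-fold or more lower. The limit on the pregnancy share of cells also covers the adult share, 2 of 85. The title numbers differed: Krt17 was at 421 CPM in the 20 cells up to 55 and 1331 in the 16 above. Krt5 was at 144 and 298, while Krt15 went the other way, at 154 and 53.8 CPM. Cell 6 held 47.0% of the Krt15 reads up to 55, and Krt15 was read in 6 of 20 and 5 of 16 cells. Against adult basal cells the median of the set was -1.78 and -1.17.

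In the same cells Krt8 and Krt18 were within 2-fold of the adult. Krt8 was at 227 CPM against 232 in adult basal cells (log2 -0.03, interval -0.12 to 0.06), and Krt18 at -0.54. Krt7 was at -0.31, but at -3.12 without pregnancy cell 52, which held 86.2% of its reads, and at 0.75 without adult cell 77. Krt19 was at 25.4 against 57.0 CPM (-1.17), a 2-fold difference that was lost as a mean over cells (-0.64), without adult cell 13 (-0.79) and in title numbers above 55 (36.1 CPM, -0.66). Of the 5, 1 was thus 2-fold or more lower and 1 higher, beside the same 22.2% and 30.9%. Krt23 was 7.55-fold higher (log2 2.92, interval 2.76 to 3.07), with reads in 15 of 36 cells against 4 of 85, and at 4.59 without adult cell 34. It was at 65.0 CPM in title numbers up to 55 and 232 above.

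Luminal keratins were lower in pregnancy cells of luminal profile than in adult luminal cells, together with much of the transcriptome. Of the 5, 4 were 2-fold or more lower, beside 48.9% of 14033 genes, and none was 2-fold higher, beside 14.5%. The median log2 ratio was -1.89 against -0.96 over all genes. The 8 milk genes took 36.6% of the reads of these cells and 1.25% in the adult, and with them left out of the total the median was -1.25. The count of keratins 2-fold or more lower was then 3 of 5, and 2 of 5 with TMM scaling, under which Krt18 was at -0.99 and Krt8 at -0.56. Each scaling shifts all genes alike, TMM by 0.90 in log2, so the median of all genes moves with that of the keratins. The shares of all genes past 2-fold were not counted under these scalings. Under both, Krt23 was 2-fold or more higher, on reads of 1 cell in each group. Krt7 had the largest ratio (-3.18), then Krt19 (-2.47), Krt18 (-1.89) and Krt8 (-1.46). As a mean over cells Krt19 was the largest (-2.25) and Krt7 was at -1.76. In CPM, Krt18 was at 2861 in the adult and 770 in pregnancy, and Krt8 at 1109 and 402. The 9 cells with title numbers up to 55 had 1407 CPM of Krt18 and 956 of Krt8, and the 22 above had 604 and 258, beside milk genes at 17.4% and 41.7% of reads.

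Basal keratins had no common direction in this comparison. Krt14 was 2.99-fold higher in pregnancy and Krt6a at least 198-fold lower, or at least 102-fold lower without adult cell 16. Krt5 was 4.99-fold higher (log2 2.32), at 6.74 without adult cell 35 and 1.19 without pregnancy cell 122. Krt15 was 12.9-fold lower, and 5.32-fold lower without adult cell 7. Krt17 was within 2-fold (-0.60), but at -3.65 without pregnancy cell 101, which held 88.9% of its reads, and at 6.20 without adult cell 35. Of the 5, 2 were 2-fold or more higher and 2 lower, beside the same 14.5% and 48.9%. The median of the set changed sign with the scaling, which shifts all genes alike.

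Adult luminal cells were also ordered by 15 progenitor and 15 mature luminal markers, none of them a keratin. More progenitor markers were read in 14 cells, more mature markers in 24 and equal numbers in 3, and 14 cells lay within 3 markers of the limit. Krt19 was at 1176 CPM in the first and 1701 in the second (log2 -0.53, or -1.02 with a gap of 3 or more markers), Krt18 at 2392 and 2949 (-0.30), and Krt8 at 1252 and 1004 (0.32). Krt8 thus made up a median of 30.9% of its pair in the first and 20.1% in the second. Krt7 was at 245 and 249 CPM (-0.02, or -0.64 without the top cell of the first set) but was read in 9 of 14 and 23 of 24 cells. Krt6a had 4 reads in the first set and 1605 in the second, in 5 of 24 cells.

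Further keratins were low. Of 42 others listed, 41 were matched, 4 reached 10 CPM in some group and 15 had no read. Krt42, a type I keratin, was at 50.2 CPM in adult basal cells, absent from luminal cells and at 1.25 CPM in pregnancy. Krt16 was at 19.3, 0.282 and 6.12 CPM in adult basal, adult luminal and pregnancy cells. Krt4 was read in 4 adult luminal cells only (18.1 CPM, 71.6% in cell 21), and Krt10, the suprabasal keratin of skin, was at 5.25, 8.33 and 11.8 CPM. Krt80 and Krt71 stayed at 5.07 CPM or less. Sequence shared by Krt14, Krt16, Krt17 and Krt42 and by members of the Krt6 family makes their lower counts uncertain, as the handling of reads with several matches is not given in the sources used here.

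A list of 28 genes around keratin filaments was followed. It held partners of these filaments but also other genes, such as Trp63, Vim, Des, Nes and the lamins, and the counts cover the whole list. In adult basal over luminal cells 13 were 2-fold or more higher, beside 23.8% of all genes, and 4 lower, beside 35.9%, with a median of 0.79 against -0.34 over all genes. Highest were Synm, a filament protein of muscle (at least 861-fold higher), Col17a1, a hemidesmosome collagen (log2 6.07), Pkp1, a desmosome plaque protein (5.66), and Trp63, a transcription factor of basal epithelia (2.73). Without the top luminal cell of each, Col17a1 was at 7.34, Pkp1 at 6.50 and Trp63 at 9.30, cell 35 holding 99.0% of its 391 luminal reads. Lowest was Pkp2, another plaque protein, with no read in adult basal and 55.3 CPM in luminal cells. Evpl (-7.95, on 1 basal read) and Fam83h (-1.80, or -3.49 without basal cell 26) followed, both under 10 CPM in each adult sort. Krtcap3 came after them (-1.78, or -2.51 without basal cell 87). Krtcap2 was within 2-fold, and Ppl was at -0.60, or -1.09 without basal cell 47. In pregnancy cells of basal profile over adult basal cells, of the 27 with a ratio, 3 were higher, beside 30.9%, and 9 lower, beside 22.2%, with a median of -0.62 against 0.11 over all genes. Col17a1 was at -1.04, Synm at 1.02 (0.92 with TMM) and Ppl at 2.17. Col17a1 and Trp63 are in the basal list and Pkp2 in the luminal list by which the pregnancy cells were placed, so their ratios are not independent of the profiles. In cells of luminal profile over adult luminal cells 1 was higher, beside 14.5%, and 13 lower, beside 48.9%, with a median of -0.88 against -0.96 over all genes.

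The genes most like each pair keratin over the 96 pregnancy cells, among 5878 genes, were taken by Spearman correlation of thinned CPM. For Krt5 they were Tagln (0.81), Acta2 (0.81), Perp (0.79), Tpm2 (0.77) and Myl9 (0.77), most of them genes of the contractile apparatus. For Krt14 they were Cnn1 (0.77), Tpm2 (0.76), Mylk (0.74), Tagln (0.73) and Tpm1 (0.73). Krt18 was closest to Cldn7 (0.70), Plet1 (0.70), Tmprss13 (0.69), Dbi (0.69) and Epcam (0.68), of which Cldn7 and Epcam encode junction and adhesion proteins. Krt8 had weaker neighbours, Pi4k2b (0.50), Epcam (0.47), Dbi (0.46), Atp6v1c2 (0.46) and Ano3 (0.46). Points share their capture and depth, and without thinning 4, 4, 5 and 3 of the 5 genes were kept for Krt5, Krt14, Krt18 and Krt8.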

How the data were processed

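Per the labels, freshly sorted cells of FVB/NJ mouse mammary gland were captured on the Fluidigm C1, with Nextera XT libraries read on the NextSeq 500. For each cell the authors deposited raw counts, in read pairs assigned to each Entrez gene, made by Subread 1.4.6 and featureCounts on mm10 with the built-in RefSeq annotation of Rsubread. Molecules carry no identifiers, so that PCR copies count as reads. The combined table of all cells was left aside.

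Mitochondrial genes (15, 9.54% of reads), ribosomal genes (121, 1.60%) and 1904 identifiers without a symbol in the RefSeq table (GRCm38.p6; 1.20% of reads) were removed, leaving 25139 of 27179. Cells with fewer than 50000 reads were left out, keeping 222 of 278. No pair of cells had identical counts. Counts were summed over the cells of a group, scaled to CPM and compared as log2 ratios with exact conditional intervals (95%). Genes with 1 CPM or more in 3 or more cells entered the counts of genes past 2-fold. A sum of 0 was set to 3 reads, which gives a bound. Shares of cells used a seeded draw of 50000 reads per cell and Clopper-Pearson intervals. As each group is 1 sample, no test and no p-value was computed. Profiles of pregnancy cells used the study's lists of basal and luminal genes, with 194 and 187 genes left after removal of keratins and milk genes. Named beyond the 10 keratins were the 6 other keratins with the highest CPM and the 5 genes of highest correlation to each pair keratin. Among genes of the filament list with 10 CPM or more, the 4 highest and 4 lowest ratios were named, and Evpl and Fam83h below that level. Members, lists and the title number limit of 55, which the labels tie to no capture or animal, were chosen with earlier results of these data known. Alternatives were TMM scaling (edgeR 4.0.16 in R 4.3.3), the study's minimums, other thresholds, another draw, no thinning and cells left out. The ratio, interval and thinning steps were tested on simulated data. Python 3.11.15, numpy 2.4.6, scipy 1.17.1 and pandas 2.3.3 were used.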

Additional observations from a re-analysis of the deposited data

Results flagged for a closer look

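Cells with fewer than 50000 reads entered no comparison, but most held keratin reads. A read of any of the 10 keratins was present in 20 of 27 such adult basal cells and in 25 of 27 such pregnancy cells. Krt14 was read in 20 and 16 of them, and all 4 pair keratins in 1 and 3.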

How the results depend on the processing

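No paired analysis was possible because the numbers in the titles only name cells and no test was run. Of 144 values of the main comparisons under an alternative, 114 stayed within the spread or counting interval and 30 moved, and none reversed a called direction. Without the filter on low genes, the shares of all genes past 2-fold were within 1.5 times those with it.

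The adult luminal keratin median was -4.17 without the top cell of each keratin in the lower group. For pregnancy cells of basal profile over adult basal cells, the luminal keratin median was 0.31 with the study's minimums and also with profiles at the 25th percentile. For pregnancy cells of luminal profile over adult luminal cells, the luminal keratin median was -0.99 with TMM, -1.25 without milk genes and -1.02 in title numbers up to 55. TMM and the removal of milk genes shift the median of all genes by the same amount as that of the keratins. In that comparison the basal keratin median (-0.60) was -3.71 with the study's minimums, 0.30 with TMM, 0.037 without milk genes, -1.41 as a mean over cells, -3.65 without the top cells, -3.45 and -1.77 at the 5th and 25th percentiles, -3.41 in title numbers up to 55 and 1.79 without the cells that go against their sort.

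The share of cells with both pairs was 51.8% (adult basal) and 56.3% (pregnancy) without thinning, 14.1% and 17.7% with 5 or more reads, and 77.6%, 19.5% and 86.5% in adult basal, adult luminal and pregnancy cells with 1 partner of each pair. Without cells 35 and 43 the adult luminal share of both pairs, and of Krt5 with Krt14, was 0%. With 5 or more reads, Krt5 and Krt14 were together in 79.5% of adult basal and 43.2% of pregnancy cells, and Krt8 and Krt18 in 33.3% and 73.2%. Without thinning the last were 65.2% and 90.4%. The cause of these moves was not tested, except that thinning and a higher read minimum lower detection by construction.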
